A study of Mus musculus with 9 samples.

Results

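The genes described here are 9 genes that mammals use mainly in germ cells or in the earliest embryo, Dazl, Ddx4, Mael, Sycp3, Asz1, Dppa2, Dppa4, Mageb16 and Tex19.1. They were taken by gene symbol, 9 of the 52609 annotated genes to which the transcript tables could be summed. They were proposed after the difference between the Dkk1_KO and control libraries in these same data had been seen, so their values in that comparison are a description and carry no test. RNA was sequenced from 9 libraries of mouse cells labelled as epiblast stem cells, pluripotent cells taken from the epiblast and grown on inactivated embryonic fibroblasts. The groups were Dkk1_KO (n = 3), a line with a knockout of Dkk1, which encodes a secreted inhibitor of Wnt signalling; IWP2 (n = 2), a line kept in 5 µM IWP2, a compound that blocks the secretion of Wnt proteins; IWP2_removed (n = 2), a line from which IWP2 was withdrawn after derivation; and control (n = 2), a line without knockout or inhibitor. The medium of all 4 groups held 10 ng/mL FGF2 and 20 ng/mL Activin A. Each group is 1 line, so the genotype or treatment and the line cannot be told apart. The labels do not say whether replicates came from separate cultures, so the spread between libraries may be technical. DNA methylation was not measured in the files used here, and the 9 genes are called germline genes below.

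Germ cells keep a set of genes that other tissues hold silent. In the mouse many of these genes have CpG-rich promoters that gain DNA methylation around implantation, when Dnmt3b and Dnmt3a set new methylation and Dnmt1 with Uhrf1 copies it at replication. A second layer of repression acts through a Polycomb complex that contains E2f6, Mga, Max and Pcgf6 and recognises E2F and E-box sequences. Cells of the epiblast and of later tissues are known for low levels of these transcripts, while the placenta is known for low DNA methylation and for expressing some of them.

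RefSeq promoter windows (GRCm38.p6, 250 bases before to 50 bases after the annotated start) matched 7 of the 9 genes, with Dppa2 and Dppa4 named only. The 250 bases before the start are shown 5′ to 3′ for 4 of the genes, chosen to show the range from dense to sparse CpG content and the motifs found. Capitals mark matches on either strand to an E-box (CACGTG), the E2F sequence GCGGGAA or its complement TTCCCGC, and the NRF1 sequence GCATGCG or its complement CGCATGC.
Ddx4 promoter, chr13:112652311-112652560, minus strand: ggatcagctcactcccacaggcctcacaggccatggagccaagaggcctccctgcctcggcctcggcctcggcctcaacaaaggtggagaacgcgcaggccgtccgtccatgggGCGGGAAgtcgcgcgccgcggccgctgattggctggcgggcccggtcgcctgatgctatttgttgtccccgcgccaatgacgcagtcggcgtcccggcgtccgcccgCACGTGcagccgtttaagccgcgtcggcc
Sycp3 promoter, chr10:88459337-88459586, plus strand: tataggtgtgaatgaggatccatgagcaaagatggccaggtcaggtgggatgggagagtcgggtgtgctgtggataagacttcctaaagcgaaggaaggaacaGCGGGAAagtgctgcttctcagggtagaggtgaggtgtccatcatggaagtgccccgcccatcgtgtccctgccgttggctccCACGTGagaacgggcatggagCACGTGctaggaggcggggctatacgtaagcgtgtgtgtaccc
Tex19.1 promoter, chr11:121145893-121146142, plus strand: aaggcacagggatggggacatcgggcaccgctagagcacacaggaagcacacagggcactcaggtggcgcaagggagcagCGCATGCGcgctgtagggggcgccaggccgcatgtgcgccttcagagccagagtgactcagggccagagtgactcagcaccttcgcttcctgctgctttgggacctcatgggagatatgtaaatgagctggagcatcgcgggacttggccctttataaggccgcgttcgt
Mageb16 promoter, chrX:79671436-79671685, minus strand: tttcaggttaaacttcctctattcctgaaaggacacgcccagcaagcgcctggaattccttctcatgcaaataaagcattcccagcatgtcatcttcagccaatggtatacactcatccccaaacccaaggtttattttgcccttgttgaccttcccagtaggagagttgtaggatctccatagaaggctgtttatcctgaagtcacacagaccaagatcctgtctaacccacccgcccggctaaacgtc

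CpG content differed widely among these promoters. The Ddx4 window held 38 CpG pairs, a ratio of observed to expected CpG of 0.978, and only 7.18% of 32851 promoters reached that ratio. Dazl, Asz1 and Mael followed, with ratios of 0.795, 0.783 and 0.780, and Sycp3 and Tex19.1 had 0.666 and 0.575. Mageb16 stood apart with 6 CpG pairs and a ratio of 0.335, which lay below the median of 0.384 over all promoters. The median of the 7 germline promoters was 0.780. An E-box was present in 3 of the 7 windows (Ddx4, Mael and, with 2 copies, Sycp3) and in 7.15% of all promoters. The E2F sequence was present in Ddx4 and Sycp3, 2 of 7, and in 4.60% of all promoters. The NRF1 sequence was present in Dazl and Tex19.1, 2 of 7, and in 3.58% of all promoters. The 2 matches counted in Tex19.1 overlap, since 1 is on each strand of the same palindromic stretch. These letter matches describe the windows and do not show that a factor binds there.

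**Figure D1:**
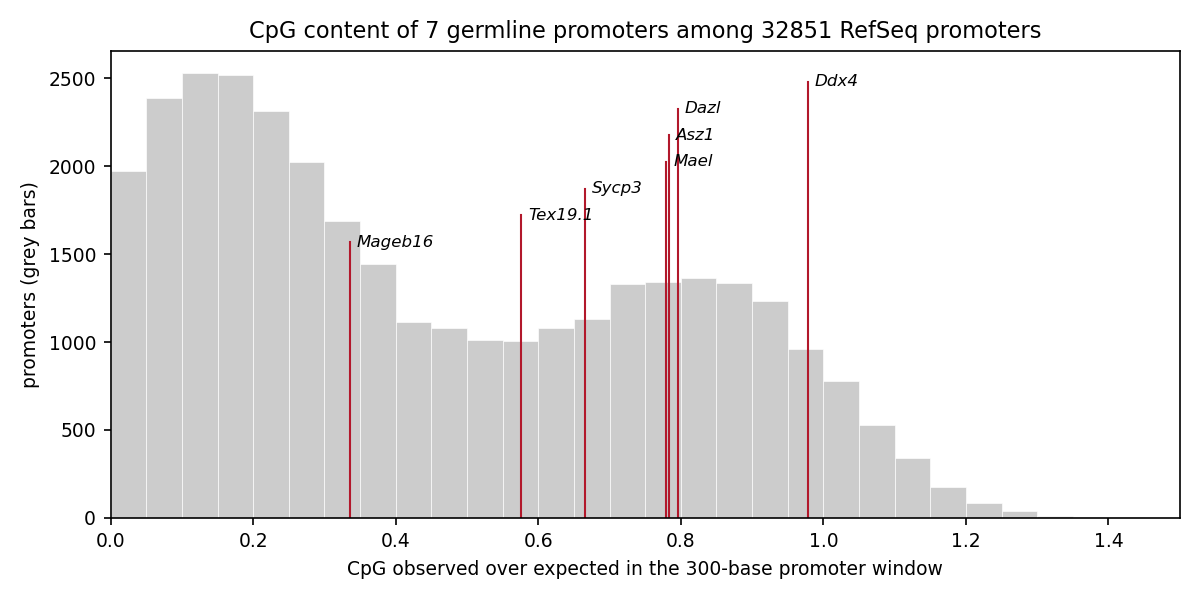
Ratio of observed to expected CpG in the 300-base promoter window (x axis) for 32851 RefSeq promoters (grey bars, number of promoters on the y axis), with the 7 germline promoters as red lines whose heights only separate the names. Ddx4 lies at 0.978, Mageb16 at 0.335, and the other 5 between 0.575 and 0.795.

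Depth ran from 10849490 to 17892751 estimated reads per library. Dkk1 itself gave 10, 11 and 16 reads in Dkk1_KO, 52 and 6 in IWP2, 57 and 93 in IWP2_removed, and 76 and 144 in control, so it was reduced but still read in the knockout line, and a lower count occurred in 1 IWP2 library. The Dkk1_KO libraries went against their tissue label. Of 12 epiblast markers 7 were called lower and 3 higher than in control, with Pou5f1 at 1.39 ± 0.28 CPM in Dkk1_KO (SD, n = 3) against 457 ± 21 CPM in control (SD, n = 2), where CPM is counts scaled to a common library total. The summed level of the epiblast list fell less, to 825 to 871 CPM in Dkk1_KO against 1829 to 2015 CPM in control. Over all genes tested 23.0% were called lower and 21.3% higher. Of 12 trophoblast markers 11 were called higher, and their summed level was 3701 to 3750 CPM in Dkk1_KO against 121 to 123 CPM in control. Of 12 naive pluripotency markers 10 were tested, 7 of them called higher and 2 lower, and the summed level of the list was 637 to 658 CPM in Dkk1_KO against 45.1 to 63.4 CPM in control. Zfp42, a naive marker that trophoblast cells also express, had 49.8 CPM in Dkk1_KO and no read in control, at least 454-fold higher. The 3 Dkk1_KO libraries were also much closer to each other than the replicates of the other lines. Their pairwise chi-square over genes was 1.79 to 2.27 per degree of freedom, against 94.4 in IWP2, 39.0 in IWP2_removed and 32.9 in control, where 1 is counting noise alone. They were kept as 3 libraries, and counts of other germline genes are also given with them averaged to 1.

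Transcripts of 8 of the 9 germline genes were present in all 3 Dkk1_KO libraries at levels that no other library reached. The exception was Asz1. The share of all genes separated in this way was not computed, so nothing is read from this count. Summed over the 9 genes, TPM (a relative level scaled for transcript length) came to 188, 183 and 190 in Dkk1_KO, 0.882 and 0.630 in IWP2, 0.380 and 0.635 in IWP2_removed, and 0.840 and 0.891 in control. In reads this was 5833 to 6546 per Dkk1_KO library, against 15 to 36 in each of the 6 other libraries. The filter on low counts passed 8 of the 9 genes, 7 of them through Dkk1_KO alone, so that these 7 had to differ there, while Tex19.1 also passed without those libraries. All 8 were among the genes called in Dkk1_KO against control, a comparison in which 44.3% of the 18096 genes tested were called, 21.3% higher and 23.0% lower. Nothing is read from that count, because the genes were chosen on this comparison. In bulk RNA a higher level in each cell cannot be told apart from a larger share of cells that express the gene.

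**Figure D2:**
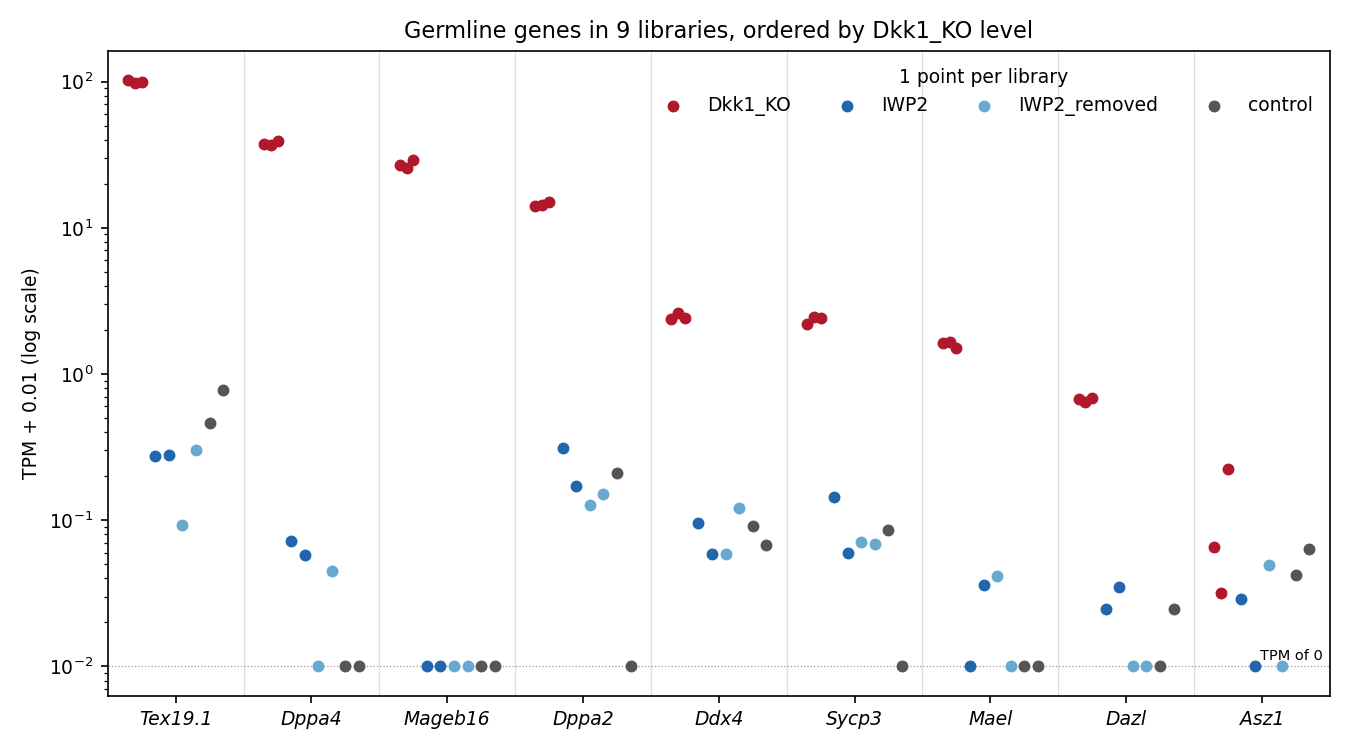
TPM plus 0.01 on a log axis for the 9 germline genes in each of the 9 libraries, 1 point per library, with Dkk1_KO left, then IWP2, IWP2_removed and control for each gene. The Dkk1_KO points of 8 genes lie above every other library, from 0.637 TPM for Dazl to 102 TPM for Tex19.1, and those of Asz1 overlap the rest.

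Tex19.1 (ENSMUSG00000039329, chromosome 11, 121146143 to 121148319, plus strand, GRCm38) encodes a protein that restrains mobile elements in mouse germ cells and placenta. It had 102, 98.5 and 99.8 TPM in Dkk1_KO, 0.264 and 0.270 in IWP2, 0.0820 and 0.291 in IWP2_removed, and 0.452 and 0.764 in control. It was the most abundant of the 9 genes in Dkk1_KO, where it held 52.4% to 54.5% of their summed TPM and only 4.07% of 21816 protein-coding genes had a higher mean TPM. It also had the most reads in control of the 9 genes, 28 over both libraries. Its log2 fold change in Dkk1_KO against control was 7.85 ± 0.30 (SE).

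Dppa4 and Dppa2 encode partner DNA-binding proteins of the early embryo and of germ cells, and lie 9.67 kb apart on chromosome 16. Dppa4 (ENSMUSG00000058550, 48283733 to 48294237) had 37.5, 36.9 and 39.3 TPM in Dkk1_KO, 0.0615 and 0.0480 in IWP2, 0 and 0.0351 in IWP2_removed, and 0 in both control libraries. With 3405 reads in Dkk1_KO and none in control, it was at least 746-fold higher in Dkk1_KO, taking 3 counts over both control libraries as the limit that 0 reads allow. Dppa2 (ENSMUSG00000072419, 48303908 to 48319723) had 14.2, 14.3 and 14.9 TPM in Dkk1_KO, 0.303 and 0.162 in IWP2, 0.118 and 0.140 in IWP2_removed, and 0.199 and 0 in control. Its log2 fold change was 7.72 ± 0.61 (SE). That value rests on the 5 reads of control replicate 1: it was 12.35 without that library, which leaves no Dppa2 read in control, and 6.54 without control replicate 2. The ratio of Dppa4 to Dppa2 TPM was steady over the Dkk1_KO libraries, at 2.65, 2.57 and 2.64.

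Mageb16 (ENSMUSG00000046942, X chromosome, 79623231 to 79671435, minus strand) belongs to the MAGE family, many of whose genes are X-linked and expressed in testis. It had 26.8, 25.6 and 29.3 TPM in Dkk1_KO and no read in any of the other 6 libraries. It was at least 659-fold higher in Dkk1_KO than in control. Of the 8 tested genes its reads varied most between the Dkk1_KO libraries, with a chi-square per degree of freedom of 4.87 against 0.0317 to 1.15 for the other 7. The mean over the 8 genes was 0.940, where 1 is counting noise alone.

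Ddx4 (ENSMUSG00000021758, chromosome 13, 112598333 to 112652475, minus strand) encodes the RNA helicase known as Vasa, a standard marker of germ cells. It had 2.36, 2.62 and 2.39 TPM in Dkk1_KO, 0.0859 and 0.0488 in IWP2, 0.0488 and 0.110 in IWP2_removed, and 0.0807 and 0.0579 in control. Every library therefore held some Ddx4 reads, 3 to 7 outside Dkk1_KO, and its log2 fold change in Dkk1_KO against control was 5.40 ± 0.42 (SE). Sycp3 (ENSMUSG00000020059, chromosome 10, 88459569 to 88473236, plus strand) encodes a lateral element protein of the synaptonemal complex, the structure that joins homologous chromosomes in meiosis. It had 2.17, 2.46 and 2.42 TPM in Dkk1_KO, 0.133 and 0.0497 in IWP2, 0.0603 and 0.0585 in IWP2_removed, and 0.0760 and 0 in control. Its 142 reads in Dkk1_KO against 1 in control gave a ratio of 93.3, with a 95% counting interval from 16.5 to 3711.

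Mael (ENSMUSG00000040629, chromosome 1, 166201201 to 166238747, minus strand) encodes a protein of the piRNA pathway, which silences transposons in the male germ line. It had 1.63, 1.64 and 1.49 TPM in Dkk1_KO, 0 and 0.0260 in IWP2, 0.0315 and 0 in IWP2_removed, and 0 in both control libraries. The 144 reads in Dkk1_KO set its level there at least 31.5-fold above control. Dazl (ENSMUSG00000010592, chromosome 17, 50279395 to 50293636, minus strand) encodes an RNA-binding regulator of translation needed for germ cell development. It had 0.662, 0.637 and 0.672 TPM in Dkk1_KO, 0.0147 and 0.0250 in IWP2, 0 in both IWP2_removed libraries, and 0 and 0.0149 in control. Its ratio of Dkk1_KO to control was 81.5, with a 95% counting interval from 14.4 to 3244 that rests on 1 control read.

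Asz1 (ENSMUSG00000010796, chromosome 6, 18050964 to 18109061, minus strand), a mitochondrial partner of the piRNA machinery, did not share this pattern. It had 0.0558, 0.0215 and 0.213 TPM in Dkk1_KO, 0.0189 and 0 in IWP2, 0.0390 and 0 in IWP2_removed, and 0.0323 and 0.0538 in control. These values rest on 6 reads in Dkk1_KO and 3 in control, a ratio of 1.31 with a 95% counting interval from 0.281 to 8.12, and Asz1 did not pass the filter. A difference was not detectable at this depth, although its promoter has a CpG ratio of 0.783, close to those of Mael and Dazl.

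In Dkk1_KO the levels per length fell in the order Tex19.1, Dppa4, Mageb16, Dppa2, then Ddx4 and Sycp3 with overlapping libraries, then Mael, Dazl and Asz1. Mean TPM ran from 100.2 ± 2.0 for Tex19.1 and 37.9 ± 1.3 for Dppa4 to 1.59 ± 0.08 for Mael and 0.657 ± 0.018 for Dazl (SD, n = 3). Apart from Ddx4 and Sycp3, no neighbours in this order overlapped. The 4 genes above 10 TPM thus included Mageb16, with the sparsest CpG content of the 7 promoters, while Dazl and Ddx4, with the densest, were at 0.657 and 2.46 TPM.

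Mael, Tex19.1 and Dppa4 were read almost wholly through 1 of their annotated transcripts in Dkk1_KO. Mael-201 held all reads of its gene, Tex19.1-201 held 99.2% and Dppa4-202 held 98.3%. Dazl-201 and Dppa2-201 were the only transcripts quantified for their genes, so they held all reads by construction. Mageb16 divided its reads between Mageb16-201, with 79.9%, and Mageb16-202, with 20.1%. For Ddx4 the division was not stable: Ddx4-202 took 76.0%, 55.1% and 100% of the TPM of the gene in the 3 libraries. Sycp3 was spread over Sycp3-201 with 65.5% of reads, Sycp3-203 with 23.4% and Sycp3-202, annotated as a target of nonsense-mediated decay, with 11.1%. With 142 and 465 reads over the 3 libraries, the shares for Sycp3 and Ddx4 depend on how shared reads were divided.

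**Figure D3:**
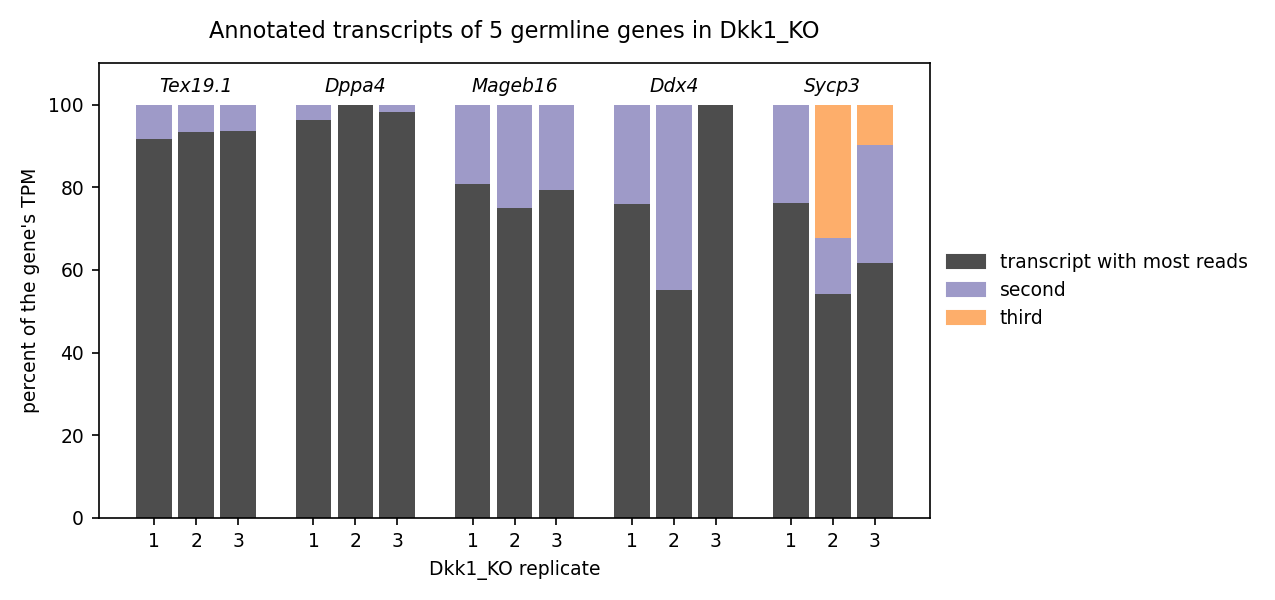
Share of the TPM of a gene (percent) carried by each annotated transcript in Dkk1_KO replicates 1 to 3, for 5 of the 6 genes with more than 1 transcript read (Asz1, with 6 reads, is not drawn), coloured by rank of reads over the 3 libraries. Tex19.1-201 carries 91.7% to 93.7% of its gene and Dppa4-202 carries 96.3% to 100%, while the second Ddx4 transcript takes from none to 44.9%.

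Some of these genes share sequence with copies elsewhere in the genome, which limits how surely reads were placed. Of the 31-base words in Mageb16 transcripts, 55.6% occur also in another gene, mostly the processed pseudogene Mageb16-ps2, which was assigned 1093 reads in Dkk1_KO beside the 3009 of Mageb16 and 1 read outside Dkk1_KO. The share was 40.1% for Dppa4, with 121 reads on 2 processed pseudogenes, 33.8% for Dppa2, with 4 reads on 7, and 6.31% for Tex19.1, which shares 118 such words with its paralog Tex19.2. That paralog was assigned 106 reads in Dkk1_KO. No such word was shared by Dazl, Ddx4, Mael, Sycp3 or Asz1. Sycp3 overlaps Chpt1 on the opposite strand, which had 1095 reads in Dkk1_KO and 562 in control, and whether the quantification used strand is not stated in the sources.

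The same 9 genes were compared between the lines without a knockout. In edgeR's quasi-likelihood test 0 of 8 tested genes were called in IWP2 against control, where 2.19% of all genes were called, 1.27% higher and 0.917% lower. At an unadjusted p below 0.05 only Dppa4 passed, with 4 reads in IWP2 and none in control, and DESeq2 and limma-trend also called 0. Tex19.1 averaged 0.267 ± 0.004 TPM in IWP2 and 0.608 ± 0.221 in control (SD, n = 2 each), a log2 fold change of -0.70 ± 0.41 (SE; edgeR adjusted p = 0.455). Dppa2 had 13 and 8 reads in IWP2 against 5 and 0 in control, a log2 fold change of 1.62 ± 0.80 (edgeR adjusted p = 0.372). Without control replicate 1 it was called, at 6.24 (edgeR adjusted p = 0.0462), in a fit that left the control line with no Dppa2 read, and without control replicate 2 it was 0.43 (edgeR adjusted p = 0.790).

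In IWP2_removed against control 0 of 8 genes were called as well, with 1.25% of all genes called (0.669% higher and 0.586% lower), and DESeq2 and limma-trend gave 0. Tex19.1 was the 1 gene with an unadjusted p below 0.05, at 3 and 11 reads in IWP2_removed against 10 and 18 in control. The reads of the 2 groups overlap, while the TPM, 0.0820 and 0.291 in IWP2_removed against 0.452 and 0.764 in control, do not. Its log2 fold change was -1.22 ± 0.44 (SE; edgeR adjusted p = 0.302). Ddx4 differed by 0.26 ± 0.52 on the log2 scale (edgeR adjusted p = 0.951). In IWP2_removed against IWP2, where 0.0608% of all genes were called (0.0387% higher and 0.0221% lower), edgeR, DESeq2 and limma-trend called 0 of 8, and 1 passed an unadjusted p below 0.05 in edgeR, Dazl, with no read in IWP2_removed and 3 in IWP2. Mageb16 had no read in any library of these 3 lines, and 6 of the 9 genes had at most 3 reads in every library outside Dkk1_KO. At such counts only large differences could have been seen. With only the 2 groups compared, edgeR called 5 genes higher and 5 lower of all 16570 tested in IWP2_removed against control. In IWP2_removed against IWP2 it called 0 higher and 0 lower. In each of these fits 1 of the 9 genes was tested, and it was not called. The cause of these smaller counts was not tested.

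A wider set of 98 other germline genes in 4 lists was set beside them, of which 61 were tested. In Dkk1_KO against control 43 were called higher and 4 lower, beside 21.3% higher and 23.0% lower over all genes tested. The same shares over all genes stand beside the Dkk1_KO counts of each list below. The median log2 fold change of the 61 genes was 3.72, against -0.03 over all genes tested. With the Dkk1_KO libraries averaged to 1, the counts were 27 higher and 0 lower of 60 tested. Calls over all genes also became fewer with this averaging, to smaller shares than 21.3% higher and 23.0% lower. The averaged counts, here and for each list below, are therefore not to be set beside those shares. Genes that passed the filter only through Dkk1_KO had to differ. The counts of the 4 lists are therefore descriptions and are not support for the 9 genes. In IWP2 against control edgeR called 0 higher and 2 lower, and in IWP2_removed against control 0 higher and 2 lower, both times Xlr3a and Xlr3b. Over all genes tested 1.27% were higher and 0.917% lower in IWP2, and 0.669% higher and 0.586% lower in IWP2_removed. At an unadjusted p below 0.05, 4 of the 61 germline genes were higher in IWP2 and 2 in IWP2_removed. DESeq2 called 0 higher in IWP2 and 1 in IWP2_removed, and limma-trend 0 in each. In IWP2_removed against IWP2 no gene of the 4 lists was called by edgeR, DESeq2 or limma-trend, with 0 higher and 2 lower at an unadjusted p below 0.05.

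**Figure D4:**
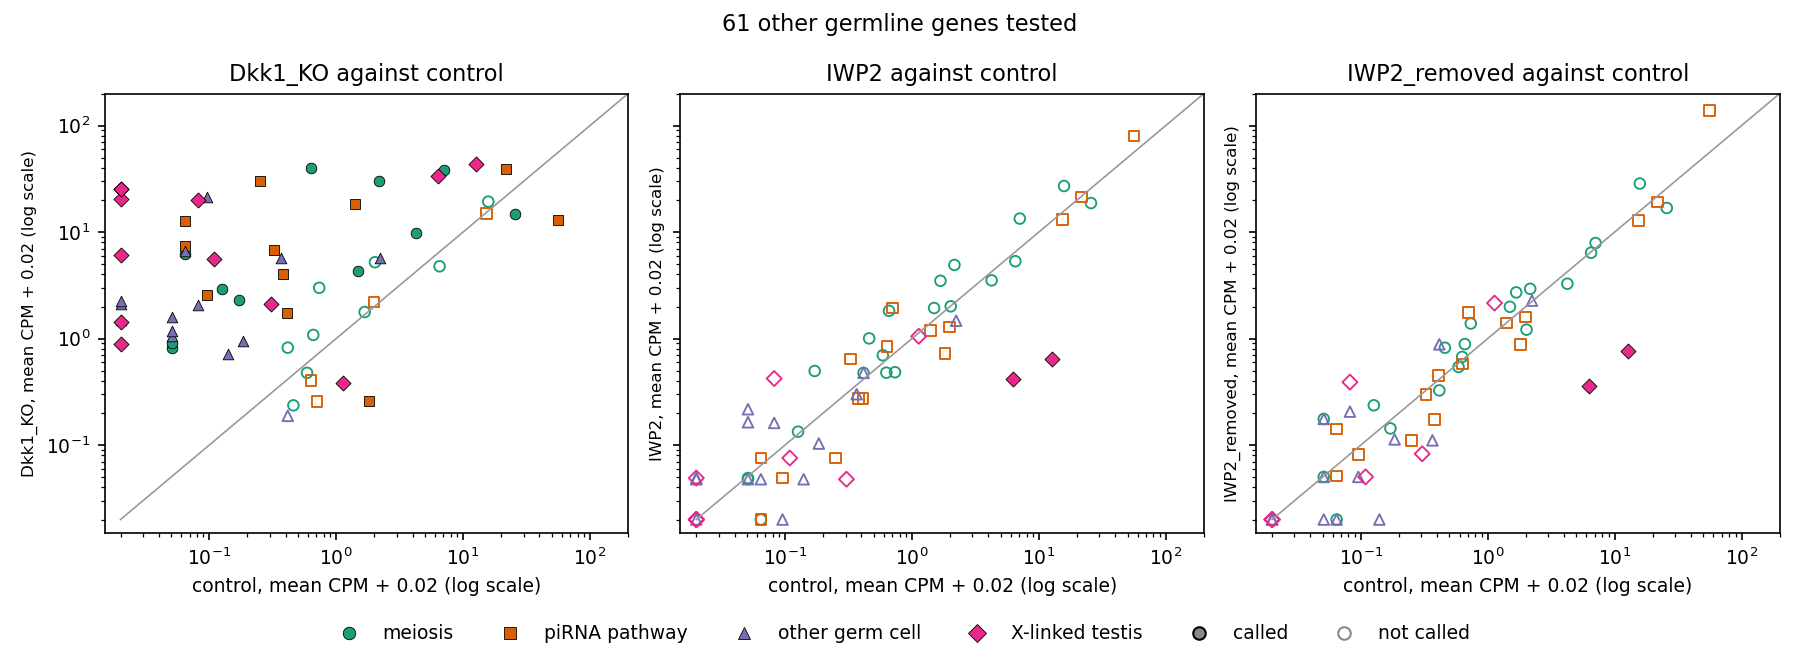
Mean CPM plus 0.02 of the 61 other germline genes tested, on log axes, in Dkk1_KO, IWP2 and IWP2_removed (y axes, left to right) against control (x axis), with colour and shape for the list, filled points for called genes and a line of equal level. In Dkk1_KO 43 genes lie above the line and called, while in the other panels the 2 called points are Xlr3a and Xlr3b, below it.

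Among 20 tested meiosis genes 10 were called higher and 1 lower in Dkk1_KO, and 5 higher and 0 lower of 20 with the Dkk1_KO libraries averaged to 1. Rec8, the meiotic cohesin subunit, had 39.6 ± 2.2 CPM in Dkk1_KO and 0.609 ± 0.106 CPM in control (log2 fold change 5.98 ± 0.41, SE). Stag3, another meiotic cohesin subunit, had 29.8 ± 0.4 CPM in Dkk1_KO and 2.14 ± 1.01 CPM in control (3.76 ± 0.44), and Meioc, a regulator of the meiotic programme, had 2.88 ± 0.30 CPM in Dkk1_KO and 0.107 ± 0.025 CPM in control (4.62 ± 0.46). The Meioc value rests on 3 reads in control. The call was not general in this list: Smc1b and Spo11, named after their values were seen, had 1.06 and 0.216 CPM in Dkk1_KO against 0.640 and 0.440 CPM in control and were not called. Ythdc2, an RNA helicase of meiotic entry that is also expressed widely, was the 1 called lower, at 14.7 CPM in Dkk1_KO and 25.7 CPM in control.

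Of 15 tested piRNA pathway genes 9 were called higher and 2 lower, and 7 higher and 0 lower of 16 with the libraries averaged. Tdrd5 had 18.3 ± 0.4 CPM in Dkk1_KO and 1.38 ± 0.07 CPM in control (log2 fold change 3.72 ± 0.23, SE), Rnf17 had 30.2 ± 1.4 CPM in Dkk1_KO and 0.231 ± 0.201 CPM in control (6.86 ± 0.62), and Piwil2 had 6.73 ± 0.18 CPM in Dkk1_KO and 0.307 ± 0.182 CPM in control (4.35 ± 0.41). Tdrd5 and Rnf17 are tudor-domain proteins of germ granules, and Piwil2 is a Piwi protein that binds piRNAs. Mov10l1, the RNA helicase needed for making piRNAs, had 12.7 CPM in Dkk1_KO and rested on 1 read in control. The members called lower were Piwil4, at 0.240 CPM in Dkk1_KO and 1.80 CPM in control, and Tdrkh, at 13.0 CPM in Dkk1_KO and 56.1 CPM in control. In the list of other germ cell genes 13 of 14 were called higher, and 7 of 13 with the libraries averaged, among them Taf7l, a germ cell paralog of a general transcription factor subunit, at 21.5 ± 1.1 CPM in Dkk1_KO and 0.0756 ± 0.0190 CPM in control. Nanos3, a marker of primordial germ cells named after its value was seen, was the 1 without a call, at 0.168 CPM in Dkk1_KO and 0.396 CPM in control.

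Of 12 tested X-linked testis genes 11 were called higher and 1, Nxf2, lower, and 8 higher and 0 lower of 11 with the libraries averaged. Fthl17a, a ferritin-like gene, had 25.4 ± 0.1 CPM in Dkk1_KO and no read in control, at least 231-fold higher. Xlr3a and Xlr3b were called higher in Dkk1_KO and lower in IWP2 and IWP2_removed, each against the same control libraries. Xlr3b had 43.8 CPM in Dkk1_KO, 0.625 in IWP2, 0.742 in IWP2_removed and 12.7 in control. Between 58.2% and 94.5% of the 31-base words of each Xlr gene occur in another gene, mostly in the same family, so the member to which a read belongs is uncertain. Over the 4 lists 13 of 14 tested X-linked genes and 30 of 47 tested autosomal genes were called higher, and 9 of 12 X-linked and 18 of 48 autosomal genes with the libraries averaged. Xist, the RNA that coats the inactive X chromosome, had 337 CPM in Dkk1_KO and 16.9 CPM in control, and 4 genes of the Y chromosome (Kdm5d, Uty, Eif2s3y and Ddx3y) had 0.843 to 3.55 CPM in Dkk1_KO and 34.1 to 100.4 CPM in control. The part of the sex chromosomes in the X-linked differences was not tested, and these 5 genes were chosen after their values were seen.

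Markers of primordial germ cells and of male germ cells were called in both directions. So were all genes tested, 21.3% higher and 23.0% lower. Of 8 tested primordial germ cell markers 2 were called higher in Dkk1_KO, Tfap2c and Dnd1, both of which sit in another list too, and 3 lower, Kit, Ifitm3 and Elavl2. Dppa3, a defining marker, had 1 read in Dkk1_KO and 1 in control, and Prdm14 had 4 reads in Dkk1_KO and 2 in control. Of 10 male germ cell markers 5 were tested. Ldhc, a testis lactate dehydrogenase, was at least 105-fold higher in Dkk1_KO and Spaca1, a sperm acrosome protein, at least 8.10-fold higher. Gfra1 and Zbtb16, markers of spermatogonial stem cells, were called lower, and the sperm chromatin genes Prm2 and Tnp1 had no read in Dkk1_KO. Of 12 genes of the 2-cell-like state that the annotation held, 1 was tested and called higher, Tmem92, and their summed level was 1.84 to 3.57 CPM in Dkk1_KO and 0.186 to 0.623 CPM in control. Summed feeder fibroblast markers came to 1778 to 1806 CPM in Dkk1_KO and 2834 to 3944 CPM in control. The trophoblast and naive pluripotency markers given above moved with the 8 germline genes in the same 3 libraries, and their part in the result was not tested.

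Genes that maintain silencing were read in all 4 lines. Of 14 DNA methylation genes 3 were called higher and 6 lower in Dkk1_KO against control, beside 21.3% higher and 23.0% lower over all genes tested. Dnmt3l, a catalytically inactive partner of the de novo enzymes, had 90.0 CPM in Dkk1_KO and 0.240 CPM in control (log2 fold change 8.61 ± 0.30, SE), Dnmt3b had 459.6 CPM in Dkk1_KO and 139 CPM in control (1.73 ± 0.23), and Dnmt3a had 51.7 CPM in Dkk1_KO and 178 CPM in control (-1.78 ± 0.18). Dnmt1, named after its value was seen, had 326 CPM in Dkk1_KO and 334 CPM in control and was not called. Of 21 genes of the E2f6 and Pcgf6 Polycomb complex and other repressors, 4 were called higher and 4 lower, shares near those over all genes. E2f6 had 49.5 CPM in Dkk1_KO and 86.1 CPM in control (-0.80 ± 0.13), and Rybp, a Polycomb subunit, had 429.7 CPM in Dkk1_KO and 142 CPM in control (1.60 ± 0.19). Mga and Pcgf6, named after their values were seen, were not called. Of the 21 repressor genes, 2 were called higher in IWP2 against control, Rnf2 and Cbx3, beside 1.27% of all genes tested. In IWP2_removed against control 2 were called higher, beside 0.669% of all genes tested. Setdb1, a histone H3 lysine methyltransferase, had 224 CPM in IWP2_removed and 112 CPM in control. Rnf2, a Polycomb ubiquitin ligase, had 202 CPM in IWP2_removed and 126 CPM in control. With only the 2 groups compared, edgeR called 0 of all genes higher in IWP2 against control and 5 in IWP2_removed against control, so the calls in IWP2 were lost there. The part of these genes in the levels of the 9 germline genes was not tested.

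Neighbours of the 9 genes moved in both directions. The nearest tested protein-coding gene on each side gave 16 distinct neighbours outside the set, of which 5 were called higher and 7 lower in Dkk1_KO against control, with a median log2 fold change of -0.46, beside 21.3% higher and 23.0% lower and a median of -0.03 over all genes tested. Among those called higher, Tex19.2 lies 27.5 kb from Tex19.1 and is its paralog (4.96 ± 0.63, SE), and Morc1, a germ cell repressor of transposons, lies 111.5 kb from Dppa2 (4.24 ± 1.13). Tex19.2 had 106 reads in Dkk1_KO and Morc1 had 64, against 2 each in control. Neighbours that passed the filter only through Dkk1_KO had to differ there. Tex19.2 shares sequence with Tex19.1, so the placing of its reads is uncertain. Gpa33, a cell surface antigen of intestinal epithelium 34.7 kb from Mael, was also higher (3.97 ± 0.44), and Ildr2 on the other side of Mael, 15.4 kb away, was lower (-6.48 ± 0.38). Outside Dkk1_KO, Slc38a9 beside Ddx4 was called lower in IWP2_removed against control (-0.89 ± 0.17; edgeR adjusted p = 0.0476), where 0.586% of all genes were called lower. This borderline call was not followed under the alternatives. With only the 2 groups compared, 5 genes in all were called lower.

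**Figure D5:**
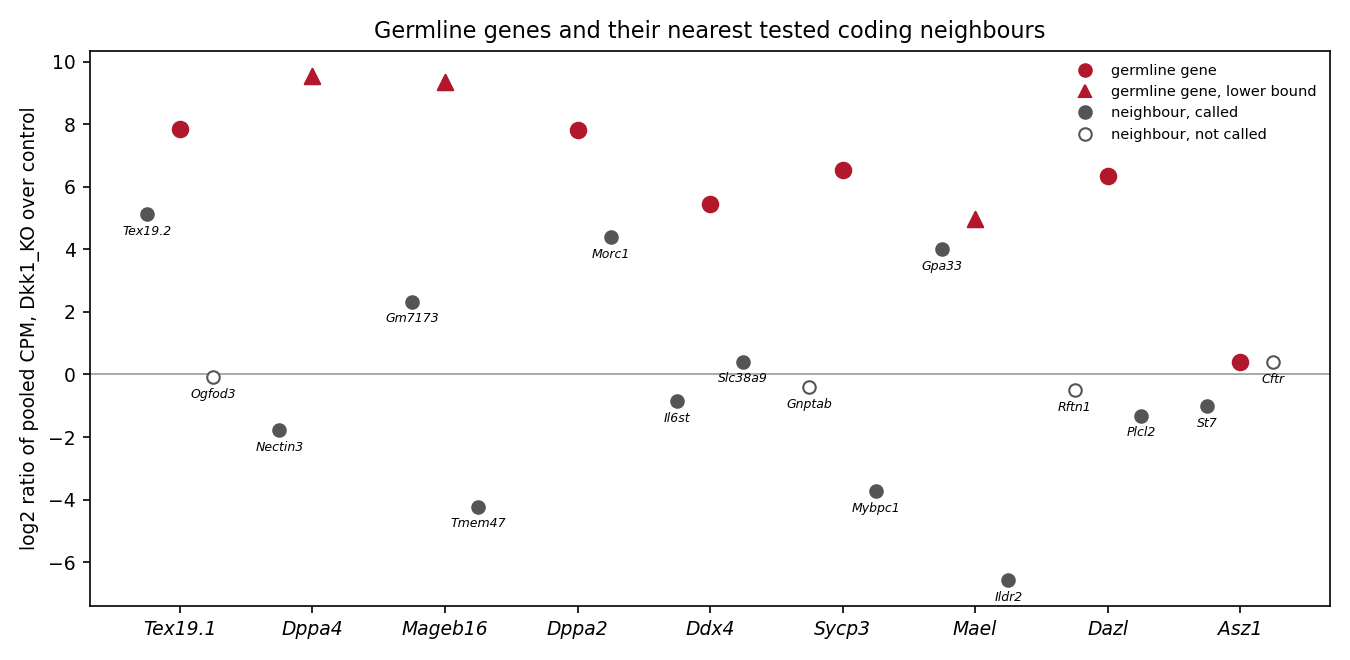
Log2 ratio of pooled CPM, Dkk1_KO over control, for the 9 germline genes (red; triangles are lower bounds where control had no read) and for the nearest tested coding neighbour at lower coordinates (left) and higher coordinates (right; grey when called, open when not). Red points other than Asz1 lie at 4.98 or above, while the neighbours spread on both sides of 0.

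The promoters of the wider lists showed no single CpG class. Of the 43 genes called higher in Dkk1_KO 35 had a RefSeq window, with a median ratio of observed to expected CpG of 0.625, a range from 0.0531 to 1.11, and 0.361 for the X-linked genes. The 12 tested genes with a window and no call had a median of 0.593. The other 48 windows of the lists belong to 33 genes not tested, 12 tested without a call and 3 called lower. The E2F sequence was in 28.6% of the windows of genes called higher and 14.6% of these other 48 windows. For the NRF1 sequence this was 22.9% of windows called higher and 10.4% of the others, and for the E-box 20.0% of windows called higher and 20.8% of the others. These shares are descriptions and were not tested.

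The genes whose levels over the 9 libraries were most like the mean log2 profile of the tested germline genes were Fthl17a, Xlr5b, Xlr5a, Mov10l1 and Xlr4a among the other germline lists. Pearson's r was 0.998 or more for each of these, on log2(CPM + 0.5), but the profile is a contrast of 3 libraries with 6, and 350 of 18088 genes had an r of at least 0.99.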

How the data were processed

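Transcript levels of 9 libraries came from the authors' deposited Salmon tables, which give estimated counts (expected counts that need not be whole) and TPM per transcript. DESeq2 and edgeR are also named, without versions, per the submitters' processing notes. The transcriptome build was not stated in the sources. Transcripts were assigned to genes with GENCODE vM21 (GRCm38) by stable identifier: 133399 of 133618 matched, and the rest held 0.117% to 0.161% of reads. Estimated counts were summed per gene and rounded, and TPM summed.

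edgeR 4.0.16 in R 4.3.3 fitted the 9 libraries together by quasi-likelihood, with 4 group means, TMM scaling and filterByExpr (18096 genes tested). A gene was called at a Benjamini-Hochberg adjusted p below 0.05 over all genes tested, and every adjusted p in the text comes from this model unless another tool is named. Simulated data with known changes were used to check it. Where a group had no read, 3 counts over the group were taken as the floor. Where it had 1 to 3, ratios carry exact 95% intervals, while log2 fold changes from edgeR carry only the SE of the model. Floors and intervals cover counting error only. Copies were genes with counts used here that shared at least 20 words of 31 bases.

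Alternatives were DESeq2 size factors in edgeR, DESeq2 1.42.0, no filter, limma-trend (limma 3.58.1) on log2(TPM + 1), a block for the replicate number or for the letter in each file name, Dkk1_KO averaged to 1 library, only the 2 groups compared, and each library left out. Genes named are the 9 genes, up to 3 called genes with the smallest adjusted p per list and comparison whose groups do not overlap, the most alike genes of the other germline lists (those among all genes are not reported here) and the neighbours; other names are said to be chosen after their values were seen, or are all the members of a small count. The 9 genes and all lists were chosen with earlier results of these data known.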

Additional observations from a re-analysis of the deposited data

How the results depend on the processing

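The 8 germline genes were called in Dkk1_KO against control under every alternative that kept at least 2 libraries in each of the 2 groups. They were chosen on this comparison, so these calls carry no test. Log2 fold changes were followed only for genes with more than 3 reads in both groups. Those of Ddx4, Dppa2 and Tex19.1 in this comparison kept their direction under every alternative. Of the counts recomputed, 188 stayed within 1.5 times the reported value and 16 moved. With Dkk1_KO averaged to 1 library, other germline genes called in Dkk1_KO against control were 27 higher and 0 lower, against 43 and 4, and those called lower were 1 in IWP2 and 0 in IWP2_removed, against 2 in each. With only the 2 groups compared, those called lower were 0 in both, with 24 and 26 of these genes tested. In IWP2_removed 1 gene was called higher against control under DESeq2, under no filter and under the letter as a block. Leaving out libraries gave 36 to 45 higher and 2 to 4 lower in Dkk1_KO, 0 to 2 higher and 2 to 3 lower in IWP2, 1 to 2 lower in IWP2_removed, and 0 to 1 higher in IWP2_removed against IWP2; germline genes of the set called in IWP2 were 0 to 1. The cause of these moves was not tested. Uncalled log2 fold changes that turned round were Ddx4 in IWP2 against control (-0.0028 by limma-trend, -0.15 to 0.36 without an IWP2 replicate), Ddx4 in IWP2_removed against control (-0.48 to 0.75 without a library), Ddx4 in IWP2_removed against IWP2 (-0.62 to 0.60; -0.10 without IWP2 replicate 2), Dppa2 in IWP2_removed against control (-0.38 without control replicate 2, 5.43 without control replicate 1) and Tex19.1 in IWP2_removed against IWP2 (0.13 without IWP2_removed replicate 1, -1.74 without IWP2_removed replicate 2). Same-numbered libraries of the lines without a knockout deviated together (r of at least 0.334), and those of Dkk1_KO did not (-0.0561 to -0.0179). The labels give only the number and the file names only a letter, so neither was taken to mark pairs in the main model. With the replicate number as a block, 8 genes of the set were called in Dkk1_KO and 0 in the other comparisons, and all genes called in IWP2_removed against control fell to 71 higher and 64 lower, against 121 and 106. By limma-trend 39.3% of all calls in Dkk1_KO against control were higher, against 48.1%, and the median of all genes shifted to -0.13. Few reads outside Dkk1_KO limit every comparison there.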
